A study of Homo sapiens with 15 samples.

Results

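Open chromatin was examined at the genes of 4 transcription factors, KLF1, NFE2, MAFK and BACH1, which bind the erythroid enhancer HS2 of the beta-globin locus or take part in the complexes that bind it. The members were all peaks of 15 lists that overlapped hg19 chromosome 19, 12985000 to 13005000 (KLF1), chromosome 12, 54680000 to 54710000 (NFE2), chromosome 7, 1560000 to 1590000 (MAFK), or chromosome 21, 30660000 to 30740000 (BACH1). They numbered 337 of 1070377 peaks and merged into 37 sites, of 120992 regions in all. The KLF1 window held 6 sites, the NFE2 window 9, the MAFK window 10 and the BACH1 window 12.

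All cells were K562, an established human erythroleukemia line. Lentivirus delivered dCas9, a nuclease-dead Cas9 led to its target by a guide RNA (gRNA), or dCas9-KRAB, its fusion to a repressor domain. The vector carried puromycin resistance, and selection at 1 µg/ml began about 96 h after transduction in 4 µg/mL polybrene. The groups were dCas9-KRAB with gRNA Cr4, dCas9-KRAB with gRNA Cr10, dCas9 with Cr4, dCas9 with Cr10, and dCas9-KRAB without a gRNA, with 3 libraries each. Both gRNAs were directed at HS2. No group had dCas9 without a gRNA, and the promoter behind dCas9 is one the labels leave out. One label field named HS2 as target in the group without a gRNA too, so groups followed the titles and the design text. The design text gives transductions in triplicate, but no label ties a numbered library to a culture of its own, so the spread behind the p-values may be technical.

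KLF1 is an erythroid zinc finger activator that binds CACCC elements in globin promoters and in HS2. NFE2 encodes the large subunit of NF-E2, an activator that pairs with a small MAF protein and binds tandem AP-1-like sites in HS2. MAFK is a small MAF protein, which binds DNA but lacks an activation domain of its own. BACH1 pairs with small MAF proteins on the same type of site as a repressor, and heme relieves that repression. The comparisons asked whether directing dCas9 or dCas9-KRAB to the enhancer changed chromatin at the genes of its own binding factors.

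Each library was 1 list of peaks of nuclease-cut DNA, with 53147 to 94777 peaks. The fold of a peak, the authors' own value, is the enrichment at its summit over the local background. The fold and p columns together gave whole-number fragment pileups at the summit for 1070377 of 1070377 peaks, within 0.01 on the −log10 p scale. For comparisons, the lists were cut to one length, the top 53098 by fold among peaks on autosomes or chromosome X. A site's rank percentile ran from 100 for the strongest peak to 0 for no peak in that shortened list. Total fragments per library were unknown from the sources used here. The closest pair of lists shared 0.703% of peak intervals exactly, so no list was a copy of another.

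Gene starts on hg19 were recalled from memory with no annotation to check them, and a site within 500 bp of one was called a promoter. The remaining sites were called distal and are given by distance along transcription, negative for upstream; exon and intron status was not assigned. In the RefSeq annotation of GRCh38.p14, DNASE2 and GCDH are the neighbours of KLF1, and their recalled starts fell on 2 sites of its window.

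Promoter sequence is shown for KLF1 and BACH1, because RefSeq promoter windows on GRCh38.p14 matched only these 2 of the 4 genes. By fold, KLF1 had the weakest promoter peak and BACH1 one of the strongest. The 250 bases before the start are printed, 5′ to 3′ on the gene's strand, for BACH1 at the first of its 3 RefSeq starts. Capitals mark, on either strand, the letters GATAA of a GATA site, CCACCC of a CACCC element, TGAGTCA of an AP-1 or NF-E2 core, GGGCGG of a GC box and the CCAAT box. The KLF1 window is chr19:12887202-12887451 on the minus strand and the BACH1 window is chr21:29298672-29298921 on the plus strand.
KLF1: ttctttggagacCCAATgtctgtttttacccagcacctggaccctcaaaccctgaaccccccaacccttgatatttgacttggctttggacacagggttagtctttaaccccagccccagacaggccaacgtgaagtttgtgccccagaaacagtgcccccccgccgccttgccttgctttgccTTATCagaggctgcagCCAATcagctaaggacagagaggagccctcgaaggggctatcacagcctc
BACH1: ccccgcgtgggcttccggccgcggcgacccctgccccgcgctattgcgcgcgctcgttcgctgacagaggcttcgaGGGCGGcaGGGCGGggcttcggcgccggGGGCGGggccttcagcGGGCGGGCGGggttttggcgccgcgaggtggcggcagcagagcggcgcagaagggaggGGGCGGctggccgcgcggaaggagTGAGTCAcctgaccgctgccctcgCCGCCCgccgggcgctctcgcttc

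The 2 printed windows differed in composition. The KLF1 window had a GC content of 55.2% and 4 CpG dinucleotides, and the BACH1 window 78.4% and 40, beside medians of 58.0% and 11 over 35116 windows of the same length. The KLF1 window held 2 CCAAT boxes, whose first bases lay at −238 and −50 from the start, and 1 GATAA in reverse at −66. The BACH1 window held 7 GC boxes (GGGCGG), of which 1 pair overlapped, and 1 TGAGTCA at −48. Of all windows, 32.0% held a CCAAT box, 20.4% a GATA site, 42.6% a GC box and 4.20% the AP-1 or NF-E2 core, on either strand. CCACCC, the letters searched for a CACCC element, stood in 31.3% of all windows and in neither of the 2 printed. Other forms of that element were not searched. The second BACH1 window (GC content 80.4%, 35 CpG) held CCACCC at −96. The third had a GC content of 32.4%, 0 CpG and 2 GATA sites in reverse. The contrast with KLF1 therefore depends on which BACH1 start is taken. These matches are letters in a window, and no binding was measured.

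By fold over local background, the 4 promoters fell into 2 kinds. MAFK and BACH1 had strong promoter peaks in all 15 lists, with median folds of 10.96 and 10.90, while the NFE2 promoter had a weak peak in all 15 (median fold 4.30). The KLF1 promoter had a weak peak in 12 of 15, split over 2 sites with median folds of 3.68 and 2.96. Weak here refers to fold. Among their libraries' peaks by summit pileup, NFE2 had a median percentile of 70.2 and the 2 KLF1 sites 77.5 and 71.7. MAFK and BACH1 had 93.6 and 96.5. In the KLF1 and NFE2 windows the strong peaks lay away from the gene's own start. As a loose check of the labelled erythroid line, the NFE2 promoter had a peak in 15 of 15 lists, while the KLF1 promoter, with 12, fell short of every list. The MAFK and BACH1 promoters were in all 15 as well, so presence does not single out KLF1 and NFE2. Of all regions, promoters and others alike, 32.1% had a peak in every list.

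**Figure D1:**
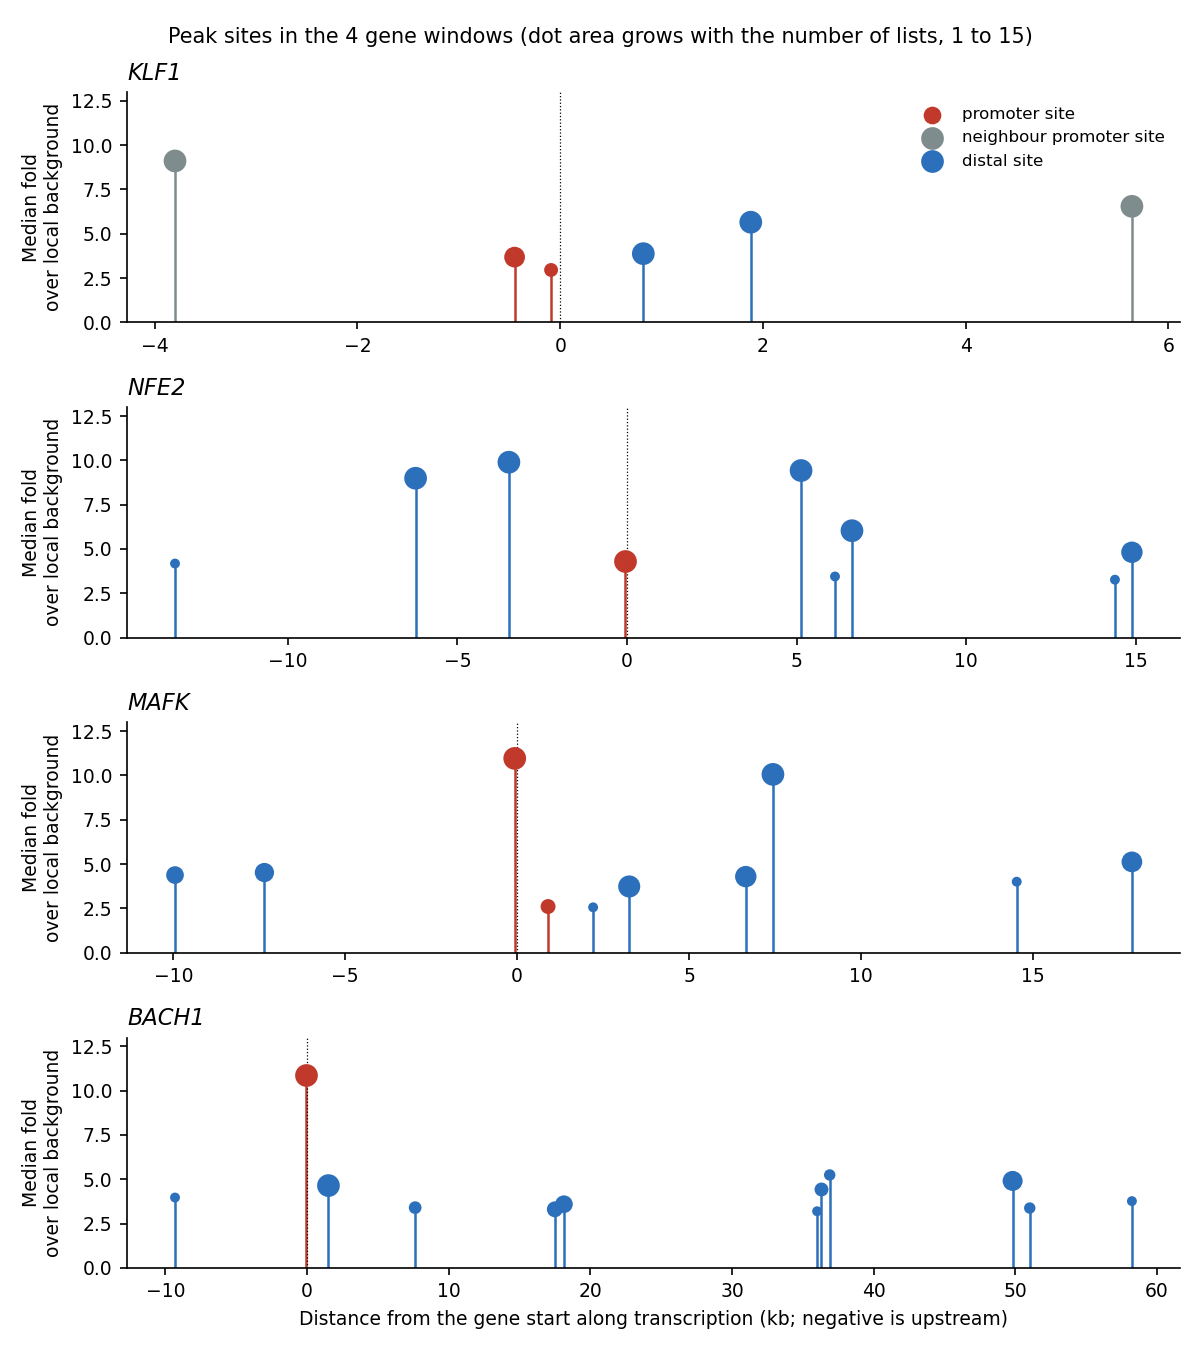
Median fold over local background (y axis, no unit) of the 37 sites against distance from the recalled gene start in kb (x axis), one panel per gene, with dot area growing with the number of lists that hold the site. MAFK and BACH1 have their tallest site at the start, NFE2 has its tallest sites at −3.48, +5.13 and −6.23 kb, and the sites at the KLF1 start are lower than those on either side.

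Of the 37 sites, 13 (35.1%) had a peak in all 15 lists, beside 32.1% of all 120992 regions. The shares differed between the windows, with 4 of 6 sites for KLF1, 5 of 9 for NFE2, 2 of 10 for MAFK and 2 of 12 for BACH1. By kind, 3 of 6 promoter sites, 2 of 2 neighbouring promoters and 8 of 29 distal sites were in every list. A further 8 sites occurred in 1 list each and 16 in 2 to 14. In the shortened lists 22 sites kept a region, 9 of them in all 15 libraries, and 17 had a peak in at least 3 libraries and were tested.

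KLF1 had promoter peaks of low fold on a high local background. The peak nearest its start (12997924 to 12998185, −0.09 kb) occurred in 4 lists, with folds of 2.71 in dCas9-KRAB with Cr4, 3.22 in dCas9-KRAB with Cr10, and 2.81 and 3.10 in dCas9 with Cr10. It was absent from the lists with dCas9 and Cr4 and from those without a gRNA. The second promoter peak (12998326 to 12998606, −0.45 kb) occurred in 12 lists. Its folds were 4.23 and 3.04 in 2 libraries of dCas9-KRAB with Cr4, 3.91 and 3.78 in 2 of dCas9-KRAB with Cr10, 3.46, 3.77 and 3.92 in dCas9 with Cr4, 3.27 and 3.76 in 2 of dCas9 with Cr10, and 3.50, 3.60 and 3.60 without a gRNA. The 3 lists without it were replicate 1 of dCas9-KRAB with Cr4, of dCas9-KRAB with Cr10 and of dCas9 with Cr10. Replicates 2 and 3 held it in 5 of 5 lists each and replicate 1 in 2 of 5. Folds describe a peak within its library, and in the 12 libraries with this peak they lay between 3.04 and 4.23.

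The background below the KLF1 peaks was among the highest of any peak. Over all peaks the median local background was 6.88 fragments, and by library it ran from 4.24 to 9.96. At the KLF1 site at −0.45 kb it was 23.3 fragments, at the 98.8th percentile of its library's peaks, and the summit pileup was 86 fragments. At −0.09 kb the background was 30.02 (99.0th percentile). A site inside the window at +0.82 kb (12997025 to 12997319) had a background of 24.9 (99.3rd percentile) and a summit of 97 fragments, at the 82.6th percentile by pileup, yet a median fold of 3.88. It was in all 15 deposited lists and in 1 of 15 shortened ones. By its definition the fold sets the summit over this background, so for a given summit a higher background lowers it. Why the background was high here was not tested.

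The strongest peak near KLF1 that was not a neighbour's promoter lay 1.88 kb downstream of its start (12995752 to 12996618). It was in all 15 lists, as 2 separate peaks in 6 of them. The folds were 5.65, 5.99 and 5.37 in dCas9-KRAB with Cr4, 6.37, 5.79 and 5.17 in dCas9-KRAB with Cr10, 5.90, 5.31 and 5.37 in dCas9 with Cr4, 5.05, 5.86 and 5.07 in dCas9 with Cr10, and 6.32, 5.20 and 6.21 without a gRNA. The groups overlapped. Within libraries this site was higher than the −0.45 kb promoter site in 12 of 12, with a median fold ratio of 1.46. It was lower than the GCDH promoter in 15 of 15 (ratio 0.608) and lower than the DNASE2 promoter in 13 of 15 (ratio 0.825). GCDH encodes glutaryl-CoA dehydrogenase and DNASE2 a lysosomal nuclease, and their promoters at −3.80 and +5.64 kb had median folds of 9.11 and 6.55.

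**Figure D2:**
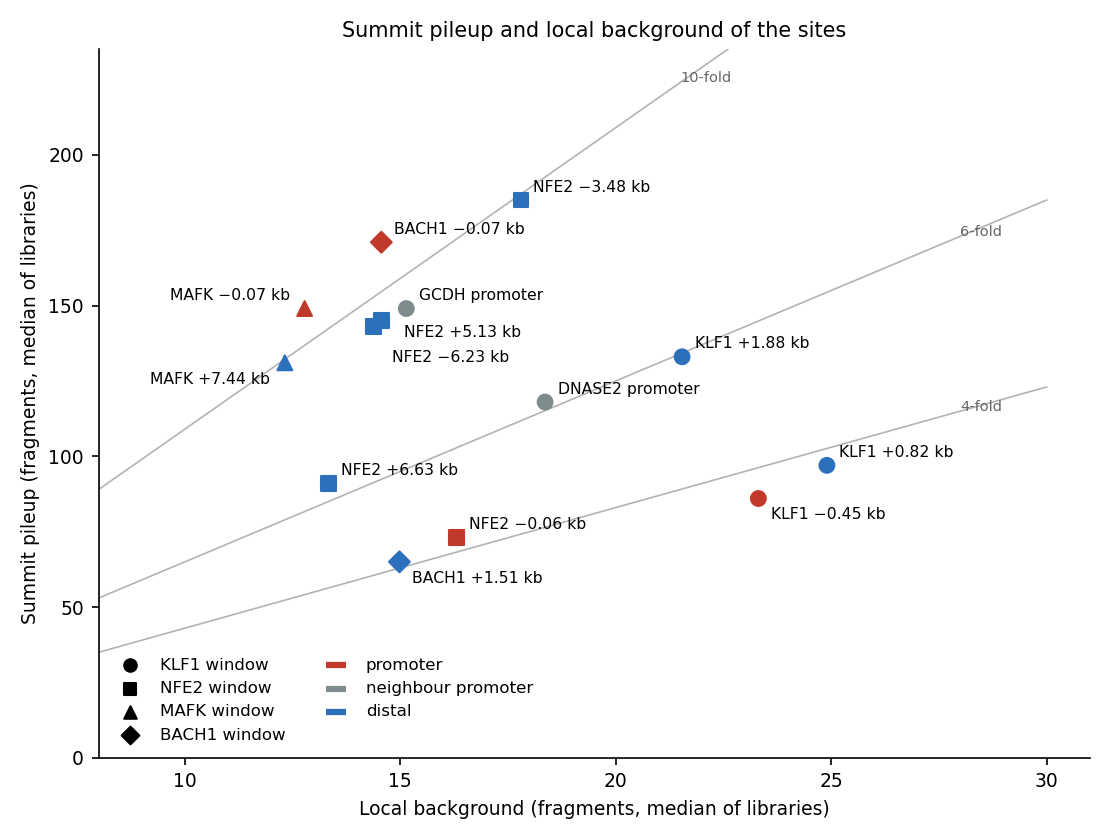
Summit pileup (y axis, fragments) against local background (x axis, fragments), both as medians over the libraries with a peak, for the 13 sites in every list and the KLF1 site at −0.45 kb; lines mark equal fold. The KLF1 sites at −0.45 and +0.82 kb lie near the 4-fold line at backgrounds of 23.3 and 24.9, while the MAFK and BACH1 promoters lie above the 10-fold line at 12.8 and 14.6.

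NFE2 was flanked by peaks stronger than the one at its start. The promoter peak (54694542 to 54695035, −0.06 kb) had folds of 4.39, 4.56 and 4.30 in dCas9-KRAB with Cr4, 4.93, 3.88 and 4.13 in dCas9-KRAB with Cr10, 4.80, 3.90 and 4.74 in dCas9 with Cr4, 4.07, 4.22 and 4.33 in dCas9 with Cr10, and 3.76, 3.60 and 4.60 without a gRNA. All 15 lists held it and the groups overlapped. Its summit pileup was 73 fragments on a background of 16.3, and 5 of 15 libraries kept it after shortening.

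Sites upstream and downstream of NFE2 exceeded its promoter in every library. Upstream at −3.48 kb (54697966 to 54698569) the median fold was 9.89, and the promoter's fold was 0.424 of it by median, between 0.356 and 0.546. At −6.23 kb (54700790 to 54701270) the median fold was 8.99 and the ratio 0.487, and downstream at +5.13 kb (54689448 to 54689863) they were 9.42 and 0.429. The promoter was the lower in 15 of 15 libraries at each of the 3.

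The −3.48 kb site of NFE2 had the highest summit of the 37 sites, with a median of 185 fragments. Its rank percentiles were 76.7, 81.2 and 70.0 in dCas9-KRAB with Cr4, 79.5, 65.2 and 71.0 in dCas9-KRAB with Cr10, 75.0, 78.1 and 75.1 in dCas9 with Cr4, 78.6, 77.6 and 56.1 in dCas9 with Cr10, and 68.6, 72.7 and 73.0 without a gRNA. The lowest value came from replicate 3 of dCas9 with Cr10, the longest list. The compared groups overlapped but for 1 pair, as the 3 libraries of dCas9 with Cr4 (75.0 to 78.1) lay above the 3 without a gRNA (68.6 to 73.0).

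The +5.13 kb site averaged 72.6 ± 4.67 (SD, n = 3) in dCas9-KRAB with Cr4, 69.4 ± 5.07 in dCas9-KRAB with Cr10, 74.3 ± 2.82 in dCas9 with Cr4, 70.0 ± 13.6 in dCas9 with Cr10 and 69.4 ± 7.22 without a gRNA. At −6.23 kb the means were 66.9 ± 2.47, 67.6 ± 4.74, 68.1 ± 1.86, 64.3 ± 2.19 and 70.9 ± 4.43 in the same order. That site varied least of the 9, with an SD of 3.59 over 15 libraries, beside a median SD of 8.02 in 4977 regions of like mean.

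The remaining NFE2 site in every list, at +6.63 kb (54688024 to 54688364, median fold 6.03), varied most between groups. Its rank percentiles were 38.4, 38.4 and 28.7 in dCas9-KRAB with Cr4, 42.2, 23.8 and 43.2 in dCas9-KRAB with Cr10, 44.0, 13.9 and 25.3 in dCas9 with Cr4, 27.4, 35.0 and 21.3 in dCas9 with Cr10, and 36.6, 0 and 6.01 without a gRNA. The lower values without a gRNA came from 2 libraries, and the third lay within the range of the other groups. The value of 0 was replicate 2, whose deposited list of 88368 peaks held the site. Its fold there was 4.73, with 91 fragments at the summit and a percentile of 39.7, and shortening removed it. The last NFE2 site of more than 1 list, at +14.88 kb, occurred in 13.

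MAFK had its strongest peak at its own start. The promoter (1570120 to 1570652, −0.07 kb) had rank percentiles of 82.4, 84.5 and 77.0 in dCas9-KRAB with Cr4, 87.8, 76.8 and 85.6 in dCas9-KRAB with Cr10, 83.6, 79.2 and 83.0 in dCas9 with Cr4, 92.4, 74.6 and 69.9 in dCas9 with Cr10, and 76.2, 79.7 and 92.2 without a gRNA. The groups overlapped, and the highest and lowest libraries were both of dCas9 with Cr10. They were replicate 1, the shortest list (53147 peaks), and replicate 3, the longest (94777 peaks). The median summit was 149 fragments on a background of 12.8. A weaker site reached into the promoter window from +0.90 kb, in 5 lists with a median fold of 2.60.

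A second strong MAFK site lay 7.44 kb downstream (1577583 to 1578070), with a median fold of 10.06. The promoter exceeded it in 13 of 15 libraries, by a median ratio of 1.12. Its means were 76.1 ± 1.23 (SD, n = 3) in dCas9-KRAB with Cr4, 74.2 ± 7.14 in dCas9-KRAB with Cr10, 74.0 ± 3.49 in dCas9 with Cr4, 74.9 ± 8.59 in dCas9 with Cr10 and 75.5 ± 5.77 without a gRNA. The other 7 distal sites of MAFK were in 1 to 14 lists. At +3.26 kb a peak of median fold 3.74 occurred in 14 lists on a background of 18.9 fragments (97.5th percentile).

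BACH1 had the widest promoter peak, with a median width of 1018 bp. The promoter (30670709 to 30671816, −0.07 kb) had rank percentiles of 80.03, 80.3 and 78.7 in dCas9-KRAB with Cr4, 87.5, 78.3 and 75.5 in dCas9-KRAB with Cr10, 85.6, 78.0 and 69.9 in dCas9 with Cr4, 80.7, 86.5 and 70.3 in dCas9 with Cr10, and 85.8, 75.7 and 78.2 without a gRNA. The groups overlapped. Its summit had a median of 171 fragments on a background of 14.6. The printed window, rich in GC boxes, is the first of 3 RefSeq starts of this gene on GRCh38.p14; the hg19 peak was not mapped to it.

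Distal sites of BACH1 were weak and irregular. A site at +1.51 kb (30672330 to 30672919) was in all 15 lists with a median fold of 4.64, and the promoter exceeded it in 15 of 15 libraries by a median ratio of 2.33. Its log2 summit pileup, relative to the library's median over regions common to all lists, averaged −0.00 ± 0.15 in dCas9-KRAB with Cr4, 0.03 ± 0.40 in dCas9-KRAB with Cr10, −0.08 ± 0.13 in dCas9 with Cr4, 0.12 ± 0.07 in dCas9 with Cr10 and 0.06 ± 0.06 without a gRNA (SD, n = 3 each). The other 10 sites spread from −9.32 to +58.22 kb and occurred in 1 to 11 lists, the most frequent at +49.80 kb (30720891 to 30721144, median fold 4.91).

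Among the 9 sites with a peak in all 15 shortened lists, the mean rank percentile over the 15 libraries put the MAFK promoter first (81.7 ± 6.37, SD), then the BACH1 promoter (79.4 ± 5.39), MAFK +7.44 kb (74.9 ± 5.02), NFE2 −3.48 kb (73.2 ± 6.48), NFE2 +5.13 kb (71.2 ± 6.77), the GCDH promoter (68.0 ± 6.02) and NFE2 −6.23 kb (67.6 ± 3.59). Neighbours in this order differed by less than either SD. The DNASE2 promoter (39.0 ± 9.58) lay 28.5 points below the last of these in 15 of 15 libraries, and KLF1 +1.88 kb (21.2 ± 11.8) a further 17.8 points below it in 13 of 15.

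**Figure D3:**
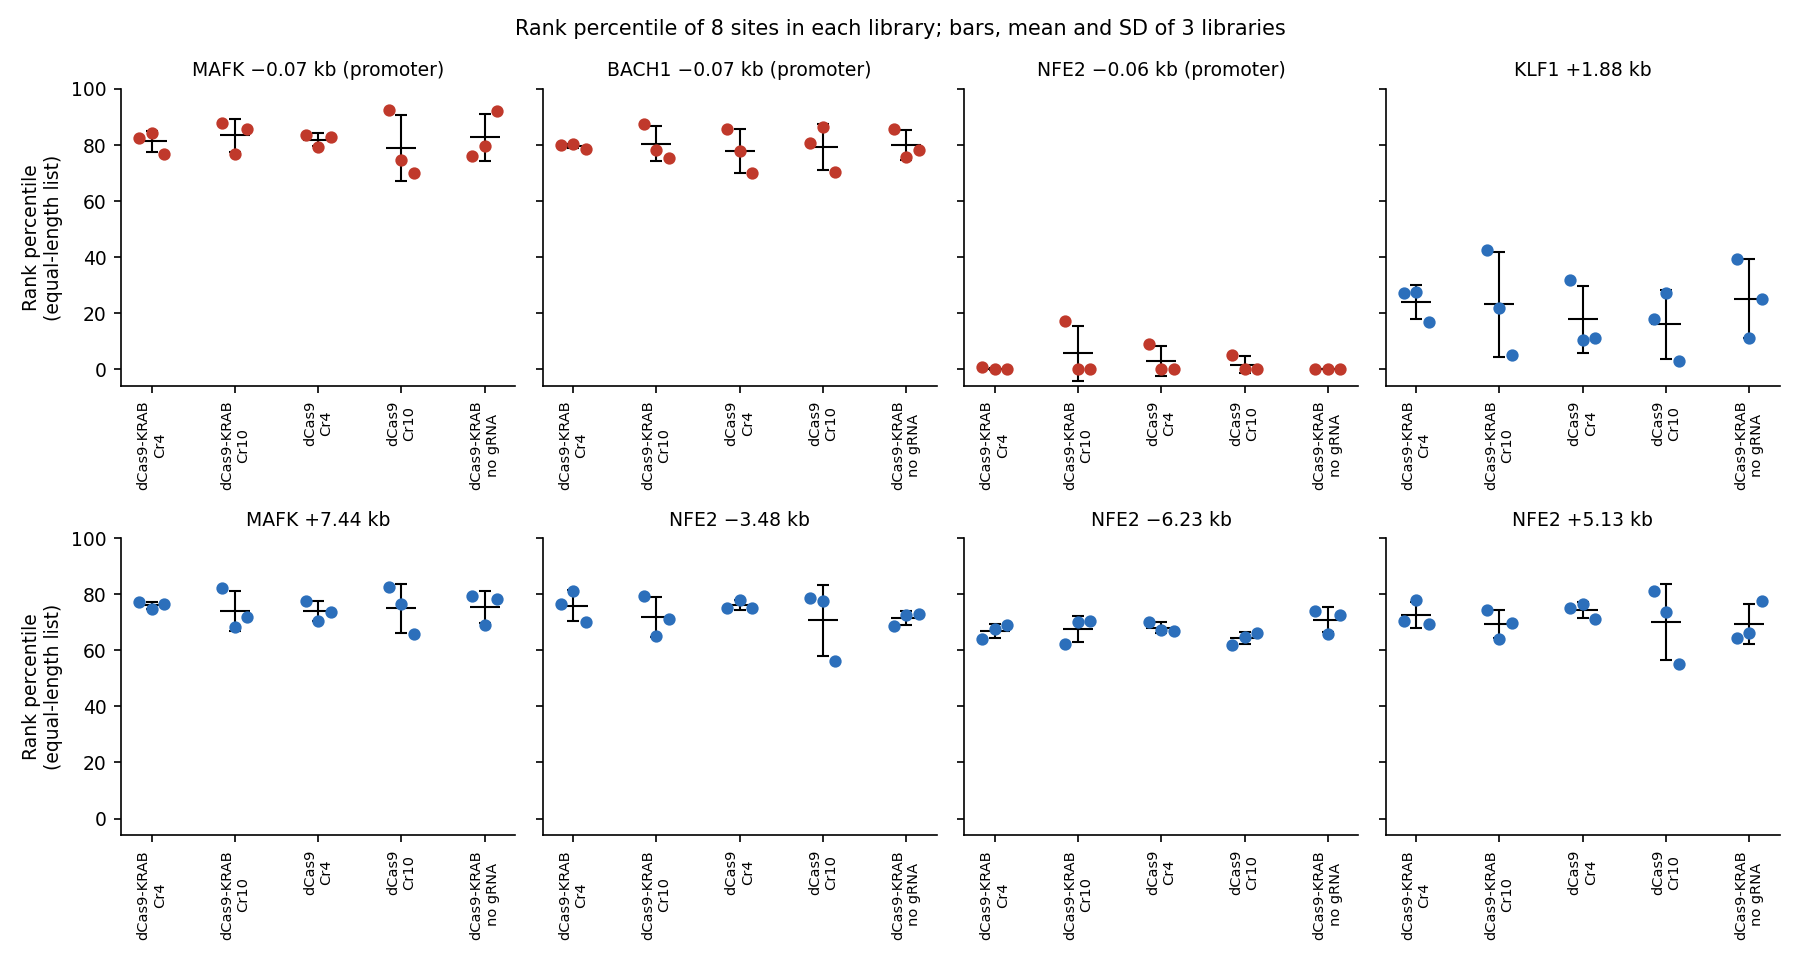
Rank percentile in the shortened lists (y axis, 0 to 100) of 8 sites by group (x axis); points are libraries, bars the mean and SD of 3. The MAFK and BACH1 promoters sit between 69.9 and 92.4 in all 5 groups, the NFE2 promoter between 0 and 17.1, and the compared groups overlap in every panel except dCas9 with Cr4 and no gRNA at NFE2 −3.48 kb.

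No site in the 4 windows passed a test between groups. By rank percentile, limma called 0 of the 17 tested sites at an adjusted p of 0.05 in each of 8 comparisons, and the background over 62857 regions was 0% in each. At an unadjusted p under 0.05 it again found 0 of 17 sites in each. The background at that p was 2.42% of all regions where dCas9-KRAB carried Cr4 and 2.8% where it carried Cr10, each set against the group without a gRNA. For plain dCas9 set against that same group it was 1.39% (Cr4) and 2.97% (Cr10). Adding KRAB to dCas9 gave 1.25% under Cr4 and 2.5% under Cr10, and under dCas9-KRAB the change of gRNA from Cr10 to Cr4 gave 2.66%. In the pooled comparison, which set the 6 libraries holding both dCas9-KRAB and a gRNA against the other 9, it was 1.72%. With so few sites, a share of that size would give less than 1 site, so the count of 0 lies near the background.

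Compared groups without overlap in rank percentile were few. They occurred at 1 of 17 sites for dCas9 with Cr4 against no gRNA (NFE2 −3.48 kb, 4.65 points higher, limma unadjusted p = 0.415; background 3.64%). They also occurred at 1 of 17 for dCas9-KRAB against dCas9 under Cr4 (NFE2 +14.88 kb, 1.85, 4.62 and 7.11 against 0 in all 3, limma unadjusted p = 0.448; background 3.92%). There were 0 of 17 for dCas9-KRAB against no gRNA under Cr4 and under Cr10 (background 5.6% and 5.4%) and for dCas9 and Cr10 against no gRNA (5.08%). There were also 0 of 17 for KRAB added to dCas9 under Cr10 (4.68%), between Cr4 and Cr10 with KRAB present (5.82%) and in the pooled comparison (0.00795%). These counts lie near the background.

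The summit pileup gave the same counts of calls. It could be tested at the 13 sites in every deposited list, against 38888 such regions. Limma called 0 of 13 sites in each comparison at an adjusted p of 0.05, beside 0% of all regions, and 0 of 13 at an unadjusted p under 0.05. The background at an unadjusted p, against no gRNA, was 0.723% (dCas9-KRAB, Cr4), 0.841% (dCas9-KRAB, Cr10), 0.311% (dCas9, Cr4) and 1.09% (dCas9, Cr10). For the addition of KRAB it was 0.211% under Cr4 and 1.3% under Cr10, between the 2 gRNAs under dCas9-KRAB 0.717%, and in the pooled comparison 0.769%. The comparisons with no gRNA share its 3 libraries.

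The intervals show which sizes of change these libraries leave possible. All 136 intervals by rank and all 104 by pileup included 0. In the pooled comparison the MAFK promoter differed by 1.15 points (limma 95% interval −6.01 to 8.32), the BACH1 promoter by 1.07 points (−5.41 to 7.55) and the NFE2 promoter by 1.39 points (−4.82 to 7.60). For KLF1 +1.88 kb the difference was 3.80 points with a wider interval (−11.2 to 18.8). On the log2 pileup the differences were 0.07 (−0.11 to 0.24) for the MAFK promoter, −0.01 (−0.18 to 0.17) for the BACH1 promoter, 0.18 (−0.07 to 0.44) for the NFE2 promoter and 0.16 (−0.04 to 0.35) for KLF1 +0.82 kb.

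**Figure D4:**
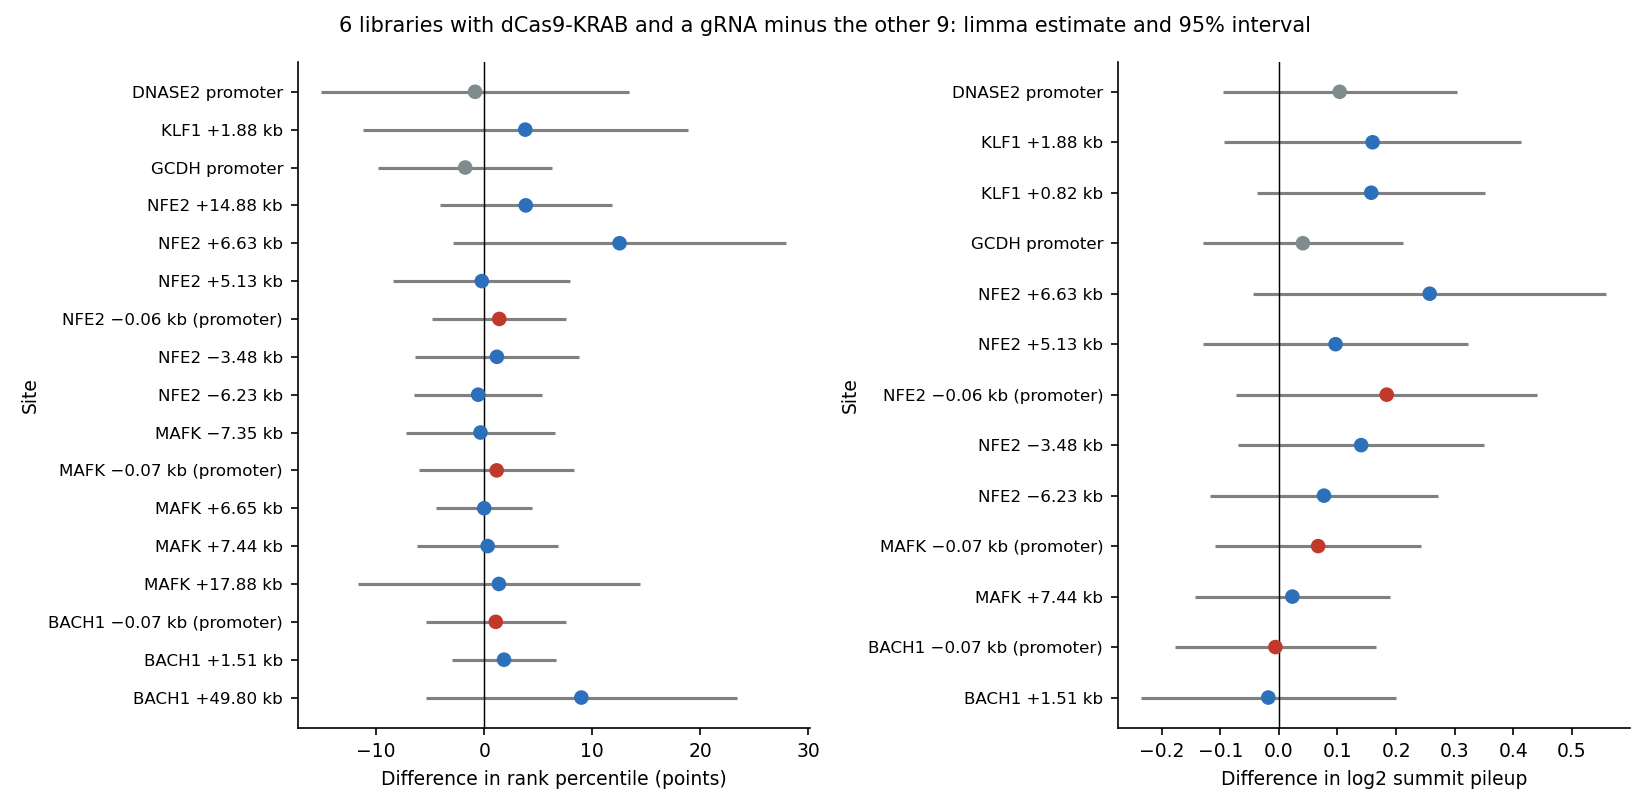
Pooled difference at the tested sites, as the 6 libraries holding dCas9-KRAB plus a gRNA minus the other 9, with 95% intervals from limma: rank percentile in points (left, 17 sites) and log2 summit pileup (right, 13 sites). All intervals cross 0, and the NFE2 +6.63 kb site has the largest estimate in both panels, 12.5 points and 0.26.

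The largest differences were at NFE2 +6.63 kb. Against no gRNA its rank percentile was 22.2 points higher with dCas9-KRAB and Cr10 (SE 11.3, limma unadjusted p = 0.0665) and 20.9 higher with dCas9-KRAB and Cr4 (SE 11.3, unadjusted p = 0.0818), both with an adjusted p of 1. With dCas9 it was 13.7 points higher with Cr10 and 13.5 higher with Cr4, so by rank the means of the 4 groups with a gRNA were all above the mean without. On the log2 pileup dCas9 with Cr10 was lower than no gRNA instead (0.03 ± 0.26 against 0.11 ± 0.57, SD, n = 3 each). Its pooled difference was 12.5 points (SE 7.27) by rank and 0.26 (SE 0.15) on the log2 pileup. None of these passed.

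Exact two-sided permutation of the 6 against the 9 libraries, over 5005 splits, gave like results for single promoters. The MAFK promoter averaged 82.3 ± 4.57 (SD, n = 6) in the 6 and 81.2 ± 7.57 (SD, n = 9) in the 9 (exact permutation p = 0.743). The BACH1 promoter averaged 80.1 ± 4.04 and 79.0 ± 6.33 (exact permutation p = 0.717). The NFE2 promoter averaged 2.97 ± 6.93 and 1.58 ± 3.29 (exact permutation p = 0.609), and its difference was −1.44 once replicate 1 of dCas9-KRAB with Cr10, the library at 17.1, was left out. The KLF1 promoter had no peak in any shortened list, which leaves the test void. In the deposited lists its percentile averaged 5.28 ± 4.23 in the 6 libraries and 9.25 ± 7.82 in the 9, a difference of −3.98 (exact permutation p = 0.281).

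The signs of the differences were counted by comparison, and some counts were near even. More sites were higher than lower where dCas9-KRAB with a gRNA was set against plain dCas9, no gRNA or the pooled others. More were lower than higher where plain dCas9 was set against no gRNA. In the pooled comparison 11 of 17 sites were higher and 6 lower by rank, with a median of 1.15 points, beside 0.114 over all regions. By pileup 11 of 13 were higher and 2 lower, with a median of 0.10 in log2 beside 0.00 over all regions. The addition of KRAB to dCas9 gave 11 higher and 6 lower by rank under Cr4, and 13 higher and 0 lower by pileup (median 0.09, beside 0.00 over all regions). Under Cr10 the addition gave 12 higher and 5 lower by rank, and 10 higher and 3 lower by pileup. Set against no gRNA, dCas9-KRAB gave 11 higher and 6 lower by rank with Cr4, 9 higher and 7 lower with Cr10, and by pileup 9 and 4 with Cr4 and 10 and 3 with Cr10. Plain dCas9 set against no gRNA gave 6 higher and 11 lower by rank with Cr4, 8 higher and 9 lower with Cr10, and by pileup 5 and 8 with Cr4 and 4 and 9 with Cr10. Between Cr4 and Cr10 under dCas9-KRAB, 6 were higher and 11 lower by rank, and 4 higher and 9 lower by pileup. These counts were not tested, and the comparisons share libraries. The shares of all regions higher or lower are not given here, so the counts stand without a background. Sites of a window share a neighbourhood and are not independent. Limma's test of whether the effect of KRAB differed between Cr4 and Cr10 called 0 of 17 sites by rank and 0 of 13 by pileup, also at an unadjusted p under 0.05 (smallest unadjusted p 0.268 and 0.3002). The share of all regions in that test is not given here, so its counts stand without a background.

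Presence of the irregular sites moved with the length of the lists. The 4 longest lists (86931 to 94777 peaks) held 25 to 28 of the 37 sites, and the other 11 (53147 to 70764 peaks) held 15 to 26. Of the 24 sites not in every list, the longest lists held 54 of 96 possible (56.25%) and the others 81 of 264 (30.7%). The same shares over all regions not in every list are not given here, so this is not shown to be particular to these sites. The 4 longest were from 4 groups, and dCas9-KRAB with Cr10 had none of them. By group the number of sites was 22 ± 4.58 (SD, n = 3) in dCas9-KRAB with Cr4, 20.0 ± 1.73 in dCas9-KRAB with Cr10, 24.3 ± 2.89 in dCas9 with Cr4, 21.3 ± 6.51 in dCas9 with Cr10 and 22.3 ± 2.31 without a gRNA.

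The sites named next were picked for uneven counts between groups. MAFK −7.35 kb (1562782 to 1563202) had a peak in 3 libraries of dCas9-KRAB with Cr4, 0 of dCas9-KRAB with Cr10, 3 of dCas9 with Cr4, 2 of dCas9 with Cr10 and 2 without a gRNA. BACH1 +18.13 kb had 2, 0, 2, 1 and 3 in the same order, and MAFK +17.88 kb had 1, 3, 3, 2 and 3. A count of 3 against 0 between Cr4 and Cr10 under dCas9-KRAB was found at 1 of the 37 sites, beside 0.331% of all 120992 regions, and between dCas9-KRAB with Cr10 and no gRNA at 1 of 37, beside 0.275%. An exact test of 3 libraries against 3 cannot give a p under 0.1, so these single sites were not tested. For presence in the 6 libraries holding dCas9-KRAB plus a gRNA against the other 9, the smallest Fisher's exact p over the 24 sites was 0.315, unadjusted and two-sided. The part of list length in these patterns was not tested.

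**Figure D5:**
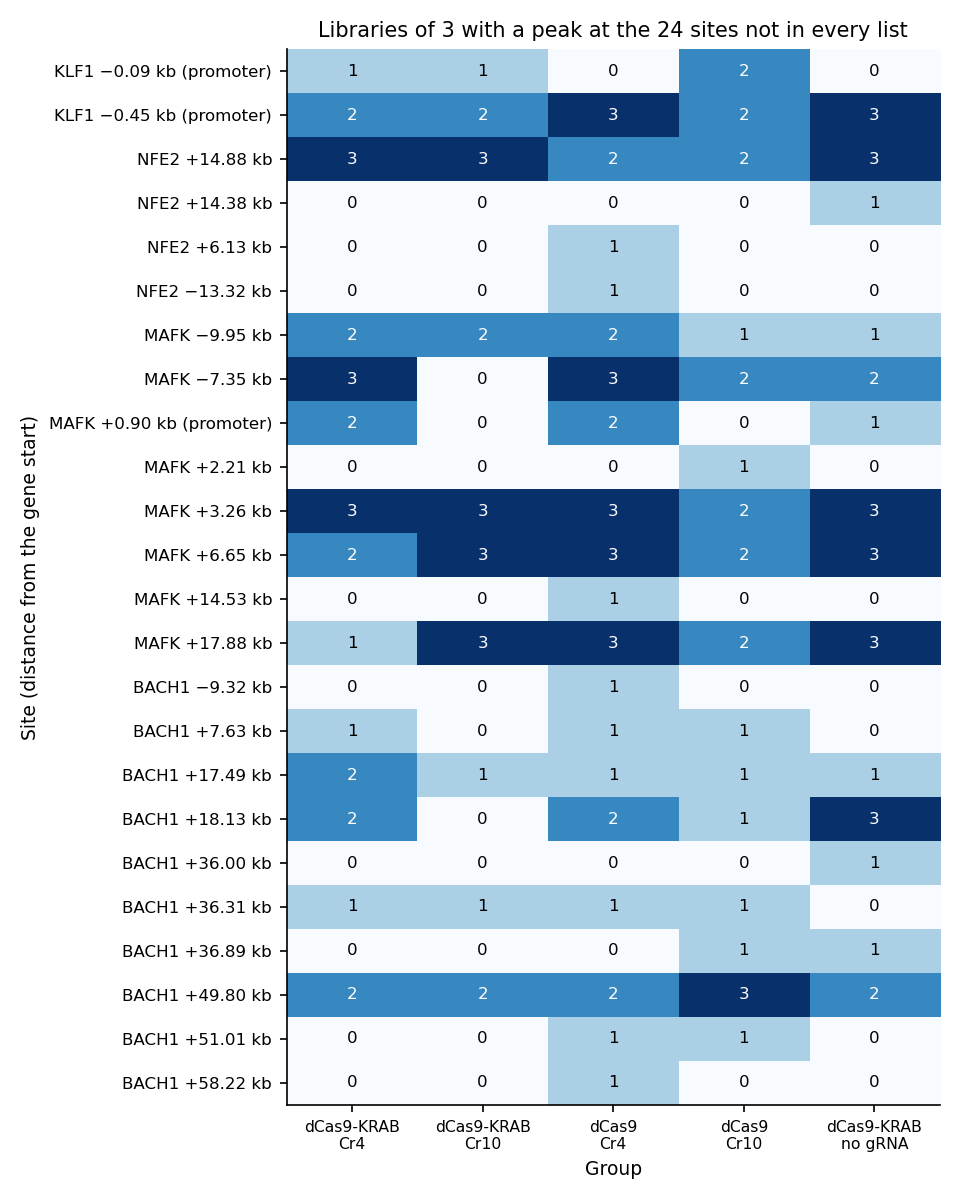
Number of libraries, of 3 per group, with a peak in the deposited lists at each of the 24 sites not held by all 15 lists; columns are groups and rows sites, named by distance from the recalled gene start. Counts of 0 and 3 stand side by side at MAFK −7.35 kb, while 8 sites have a single library.

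Across libraries, the regions whose rank percentile moved most like each promoter were sought among 62839 regions outside the windows, as a description over 15 libraries. For MAFK they were chromosome 19, 18707361 to 18708003 (Pearson r 0.907, Spearman rho 0.914), and chromosome 1, 2120829 to 2121422 (r 0.901, rho 0.893). For BACH1 they were chromosome 5, 112042945 to 112043826 (r 0.939, rho 0.846), and chromosome X, 129116178 to 129117033 (r 0.931, rho 0.850). For NFE2, at 0 in 10 of 15 libraries, they were chromosome 6, 116857375 to 116857637 (r 0.996, rho 0.633), and chromosome 11, 18479006 to 18479276 (r 0.988, rho 0.928). The points share each library's depth and list, and the regions were picked as the highest of many.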

How the data were processed

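Nuclease-accessible DNA was sequenced from 15 K562 libraries, 3 in each of 5 groups named by the titles and the design text. Per the submitters' processing notes, CASAVA 1.3, BWA and bedtools were used on hg19; for the peak caller and its threshold, the sources used here give nothing. The authors deposited 1 narrowPeak list per library: a score, a fold over local background (a ratio), and −log10 p and q values. The score was not used.

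Peaks were ranked by fold, lists shortened to 53098 peaks, and peaks overlapping by 1 bp merged into 78353 regions; those seen in 3 or more libraries (62857) were fitted. Limma (3.58.1, R 4.3.3) used all 5 groups, a mean-variance trend and Benjamini-Hochberg adjustment over all regions. The summit pileup k was solved from fold = (k + 1)/(λ + 1), with λ the local background, and the Poisson p; log2(k + 1), less the library's median over 38888 regions in all lists, was fitted likewise. Other steps used Python 3.11.15, numpy 2.4.6, pandas 2.3.3 and scipy 1.17.1. The limma fit of the summit pileup was tested on simulated data. Precision is limited by 3 libraries a group; 3 against 3 cannot give an exact p under 0.1.

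Alternatives were other list lengths, filters, overlaps, ranking by p, limma settings, a replicate block and leaving out each library. Every site of the 4 windows is described; promoters get 15 values, sites in all lists values by group, others counts, and likeness the 2 highest correlations. Members and lists were chosen with earlier results of these data known.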

Additional observations from a re-analysis of the deposited data

How the results depend on the processing

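In every alternative run, limma called 0 sites of the 4 windows (smallest adjusted p 0.965). By rank 27 fits gave 3728 site tests, with 13 (0.349%) at an unadjusted p under 0.05. By pileup 19 fits gave 1976, with 15 (0.759%). In the main fits the share of all regions at that p was 1.25% to 2.97% by rank and 0.211% to 1.3% by pileup. Shares of all regions in the other fits are not given here, and the fits share libraries. Sites with a peak in all lists numbered 13, or 9 in lists of equal length. The pooled promoter differences, none of which passed in any setting, changed sign in 9 of their alternatives; the cause was not tested. MAFK was −0.0028 on the log2 of the rank and −0.2645 without replicate 3 of dCas9 with Cr10. BACH1 was −0.0068 in the deposited lists, −0.2188 ranked by p, −0.0059 on log2 pileup, and −0.425, −0.0689 and −0.0189 without replicate 1 of dCas9-KRAB with Cr10, replicate 3 of dCas9 with Cr4 and replicate 3 of dCas9 with Cr10. Leaving out each library gave −1.44 to 2.33 for NFE2, −0.2645 to 2.55 for MAFK and −0.425 to 2.003 for BACH1 (exact permutation p at least 0.441). The KLF1 promoter, absent from shortened lists, had a value in the deposited lists (−3.98), ranked by p (−6.44) and with a 1000 bp window (−0.281), and no other; NFE2 had none with 50000 peaks or a minimum of 8 libraries.

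Replicate numbers were not taken to pair libraries, since all 3 same-number pairs correlated over 0.1 in 2 of 7 comparisons only (dCas9-KRAB with Cr10, and dCas9 with Cr4, each against no gRNA). Same-number pairs correlated at −0.193 to 0.416 (median 0.0735, 13 of 30 over 0.1), beside a median of −0.105 for different numbers. For replicate 1, all pairs among the groups other than dCas9 with Cr10 correlated at 0.219 to 0.416. Replicate 1 of dCas9 with Cr10 correlated with them at 0.0311 to 0.0785. Whether the replicate 1 libraries shared a batch was not tested. Each library set against each other group correlated best with its own number in 30 of 60 cases, with 3 numbers to choose from. With the replicate block 0 sites were called, and NFE2, MAFK and BACH1 promoters differed by 1.39, 1.15 and 1.07 points, with p of 0.540, 0.749 and 0.612 from permutation within numbers.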
